A study of Homo sapiens with 18 samples.

Results

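The neutrophil-attracting CXC chemokine genes CXCL1, CXCL2, CXCL3, CXCL5, CXCL6 and IL8 (current symbol CXCL8) were followed across the 6 groups of an RNA sequencing study of OVCAR3, a long-established cell line derived from a human high-grade serous ovarian carcinoma. The 6 genes were found by symbol among 55765 symbols, and each had 1 entry in both count tables. The members were chosen by function, as the CXC chemokines that attract neutrophils, after results of these data were known. The family was chosen on the values of IL8 with each IgA and on those of CXCL1 with IgA against IgG. For the comparisons of an IgA with its controls, the members are therefore described with no p-value, and nothing is read from how many of them passed the threshold used for all genes.

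The study asked how tumour cells respond to antibodies, and measured 18 libraries of total RNA in 6 groups of 3 replicates. In series 1 the cells received non-specific native human IgA, non-specific native human IgG, or no antibody. In series 2 they received IgA against BDNF, IgA against TSPAN7, or no antibody. Both antigen-specific antibodies came from EBV-immortalized B cell clones grown out of tumours, and series 2 held no IgA of another specificity and no IgG. Antibodies were given at 0.5 µg/mL to cells in medium with 2% serum. The labels give 24 h for all groups, and another description of the same work gives a shorter incubation. OVCAR3 is 1 cell line. The study describes the replicates of series 1 as separate experiments, but the labels do not say that replicates of either series were separate cultures, so p-values measure the spread between these samples, which may be technical.

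Library totals ranged from 27920733 to 47381836 counts. All 9 markers of serous ovarian carcinoma had at least 10 counts in every library. Of 9 neutrophil markers, MPO had at most 1 count and FCGR3B at most 4 in any library. CSF3R had at most 24, ELANE 9, CXCR2 7 and CXCR1 3. S100A12 had 0 to 3 counts in series 1 and 5 to 23 in series 2. S100A8 and S100A9, which epithelial cells also express, had 91 to 5055 and 163 to 7577 counts. The leukocyte marker PTPRC was low throughout but differed between groups. It had 6.08 to 9.03 normalised counts untreated in series 2, 17.1 to 19.0 with BDNF IgA and 10.8 to 25.3 with TSPAN7 IgA, and in series 1 it had 15.8 to 56.0 with IgA and 13.5 to 25.2 in the controls. Of 6 B cell and plasma cell markers, SDC1, which epithelial cells also express, carried the sum, which was 4495 to 7072 normalised counts with IgA and 2535 to 3532 in the controls of series 1, while the B cell marker MS4A1 was at 0 in all 9 libraries. The sum of 6 fibroblast or mesothelial markers was 2401 to 4875 with IgA and 2066 to 2466 in the controls, and that of 6 monocyte or macrophage markers was at most 75.9 in any library. The part of these differences in the values of the chemokines was not tested. The third IgA library had 19.1% mitochondrial counts, against 5.75% to 8.32% in the other libraries of series 1, and the log2 fold changes with IgA are given with and without it. The common dispersion, the squared relative spread between replicates beyond counting, was 0.0307 in series 1 and 0.00303 in series 2.

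CXC chemokines are small secreted proteins, named for the 2 cysteines of their amino-terminal motif that are separated by 1 residue. Those studied here carry a glutamate-leucine-arginine motif before the cysteines and act through the receptors CXCR1 and CXCR2, which neutrophils carry on their surface. IL8 and CXCL6 act on both receptors, and CXCL1, CXCL2, CXCL3 and CXCL5 act mainly on CXCR2. Epithelial cells and carcinomas make them when cytokines such as IL-1 and TNF activate the transcription factor NF-κB, and their short-lived mRNAs are also controlled by decay factors.

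All 6 genes lie in a cluster on chromosome 4, at 74606236 to 74964913 of GRCh37, the build of the deposited counts. The interval spans 358.7 kb and holds 19 annotated genes, 10 of them protein-coding. IL8, CXCL6 and CXCL1 lie on the plus strand, and CXCL5, CXCL3 and CXCL2 on the minus strand. The canonical transcript of each member has 4 exons. The coding sequences of CXCL1, CXCL2 and CXCL3 were 90.7% to 94.4% identical to each other and those of CXCL5 and CXCL6 were 87.4% identical, whereas IL8 was 57% to 61.8% identical to the others. Of the 75-base words of the canonical transcripts, 0.273% of CXCL1, 2.5% of CXCL2 and 2.3% of CXCL3 also occur in a transcript of another gene of this trio. CXCL6 and IL8 shared no such word with another gene, but CXCL6 overlaps the pseudogene PPBPP1 on the same strand, which had 0 counts in every library. For CXCL5 the share was 8.64%, nearly all of it with the overlapping antisense gene ENSG00000287037. The use of strand in counting is not stated, so reads of CXCL5 and of this antisense gene cannot be told apart.

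The promoters are shown because every member had one sequence element in common there. All 6 genes were matched by symbol in the RefSeq promoter table (GRCh38.p14). The motif GGAATTTCC, a binding sequence of NF-κB (kB), stood 69 to 91 bases before the start of each of the 6 genes. On either strand, 0.413% of 35116 RefSeq promoters hold it in the 250 bases before the start. The motifs were chosen after the promoters of IL8 and CXCL1 had been read, so the matches are a description. The 60 bases around the motif of each gene are written 5′ to 3′ on the strand of the gene, with the motif in capitals. Their positions on GRCh38.p14 are chr4:73869289-73869348 (plus strand) for CXCL1, chr4:74099239-74099298 (minus) for CXCL2, chr4:74038734-74038793 (minus) for CXCL3, chr4:73998734-73998793 (minus) for CXCL5, chr4:73836563-73836622 (plus) for CXCL6 and chr4:73740452-73740511 (plus) for IL8.
CXCL1: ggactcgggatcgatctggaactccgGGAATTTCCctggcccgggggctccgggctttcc
CXCL2: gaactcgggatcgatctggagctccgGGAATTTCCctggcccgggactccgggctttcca
CXCL3: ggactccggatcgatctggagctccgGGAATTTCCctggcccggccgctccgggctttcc
CXCL5: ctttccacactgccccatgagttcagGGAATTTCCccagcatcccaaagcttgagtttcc
CXCL6: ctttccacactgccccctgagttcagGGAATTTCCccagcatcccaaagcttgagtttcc
IL8: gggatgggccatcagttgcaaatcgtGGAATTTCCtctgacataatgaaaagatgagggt

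The windows fell into the same families as the coding sequences. CXCL1 and CXCL3 had the same base at 56 of 60 positions, and CXCL5 and CXCL6 at 59. IL8 had the same base as another member at 18 to 25 positions. Over the whole 250 bases before the start, IL8 was 49.3% to 53.7% identical to the others. It was also the member whose promoter held the other 3 motifs searched on both strands, and these are shown in capitals in the 250 bases before its start (GRCh38.p14, chr4:73740319-73740568, plus strand). The AP-1 motif TGACTCA is held by 4.2% of all promoters. The C/EBP motif TTGCAAA is held by 2.98%. The core promoter motif TATAAA is held by 10.7%. In IL8 they lie 137 to 131, 102 to 96 and 31 to 26 bases before the start. The C/EBP match lies 4 bases before the kB motif and the matches do not overlap. No other member held an exact match to any of these 3 motifs in this window. The motifs were chosen after the promoter of IL8 had been read, and near matches were not searched, so other members may hold variants of them.
IL8: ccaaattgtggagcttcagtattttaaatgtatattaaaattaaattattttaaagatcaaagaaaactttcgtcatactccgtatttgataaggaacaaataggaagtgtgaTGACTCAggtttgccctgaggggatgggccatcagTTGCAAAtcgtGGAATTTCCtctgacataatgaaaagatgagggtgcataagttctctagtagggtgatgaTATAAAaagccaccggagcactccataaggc

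The level of each member in each library is given in normalised counts, that is, counts divided by the TMM-scaled size of their library and multiplied by the average of these sizes over the series. The series were scaled separately, so levels are compared within a series only. In bulk RNA, more cells making a transcript and more transcript per cell cannot be told apart. Where groups are said to overlap or not, the share of all genes that did the same was not counted.

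**Figure D1:**
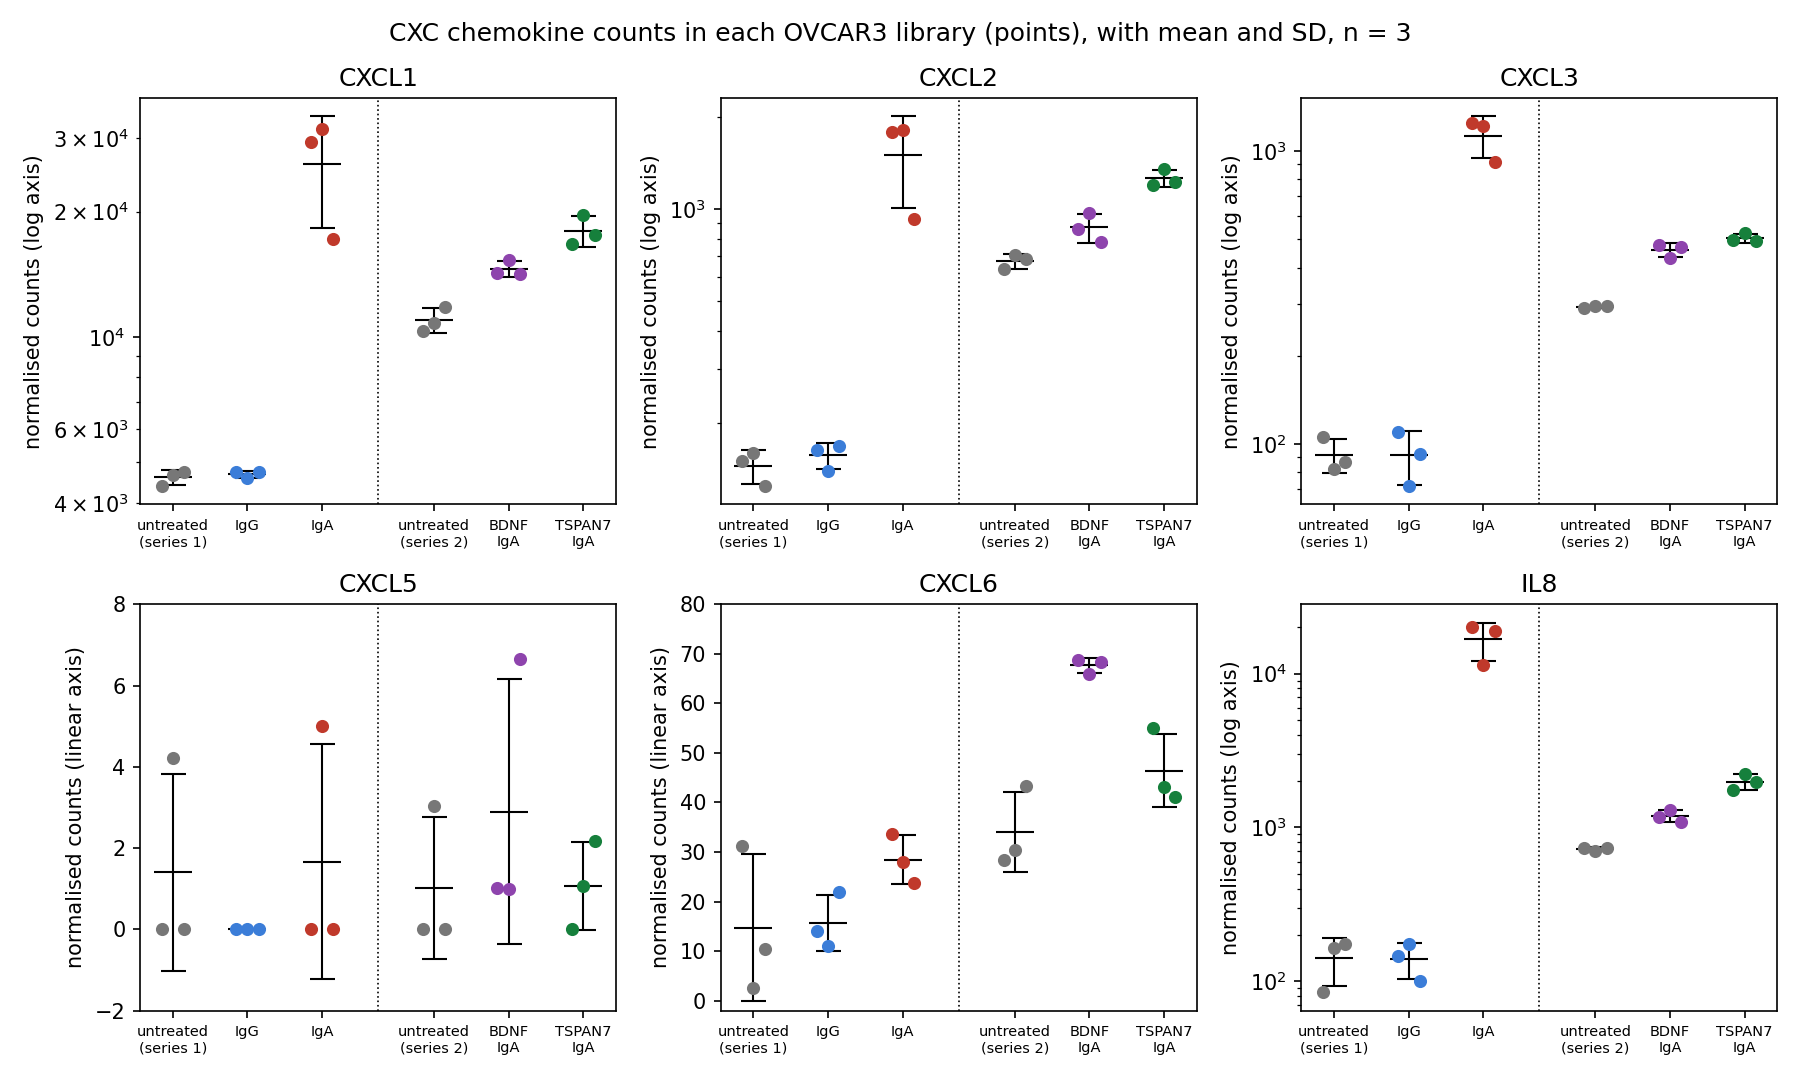
Normalised counts of the 6 members in each library (points), with the mean and SD of 3 libraries per group (bars); the vertical axis is logarithmic for CXCL1, CXCL2, CXCL3 and IL8 and linear for CXCL5 and CXCL6, and a dotted line separates the series. CXCL1, CXCL2, CXCL3 and IL8 in the 3 IgA libraries stand above all IgG and untreated libraries of series 1. In series 2 the TSPAN7 IgA libraries stand above the BDNF IgA libraries for the same 4 genes, of which CXCL3 did not pass the test. For CXCL6 they stand below, and the share of all genes separated in this way was not counted.

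IL8, a ligand of both receptors, had 85.1, 166 and 176 normalised counts in the untreated libraries of series 1 and 146, 175 and 101 in the IgG libraries. The IgA libraries had 19999, 11352 and 18769. All 3 IgA libraries were above all 6 control libraries, and the lowest IgA library was the second. The group means were 142 ± 49.6 (SD, n = 3) untreated, 140 ± 37.2 with IgG and 16707 ± 4678 with IgA. The log2 fold change of IgA against IgG was 6.88 (SE 0.31, 95% interval 6.21 to 7.56), a fold of 118, and against untreated cells it was 6.86 (SE 0.31). Without the third IgA library the log2 fold changes were 6.79 and 6.76.

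CXCL1, which like its close relatives attracts neutrophils through CXCR2, was already abundant in control cells. Its values were 4394, 4670 and 4748 normalised counts untreated, 4737, 4581 and 4730 with IgG and 29387, 31600 and 17169 with IgA. The controls spanned a narrow range and the third IgA library was the lowest of its group. The means were 4604 ± 186 (SD, n = 3), 4683 ± 87.7 and 26052 ± 7772. Against IgG the log2 fold change was 2.48 (SE 0.18, 95% interval 2.09 to 2.86), or 2.70 without the third IgA library.

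CXCL2, another CXCR2 ligand, had 151, 160 and 125 normalised counts untreated, 163, 139 and 168 with IgG and 1777, 1809 and 929 with IgA. Its log2 fold change against IgG was 3.27 (SE 0.24, 95% interval 2.76 to 3.77). CXCL3, the closest relative of CXCL2 by coding sequence, had 106, 82.4 and 87.0 untreated, 110, 71.9 and 92.2 with IgG and 1249, 1219 and 916 with IgA. Neither gene overlapped between IgA and the controls, and for both the third IgA library was again the lowest. CXCL3 had a log2 fold change against IgG of 3.63 (SE 0.20, 95% interval 3.19 to 4.06). Without the third IgA library the values were 3.51 for CXCL2 and 3.75 for CXCL3. The part of the high mitochondrial share of that library in these values was not tested.

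CXCL6, the member that shares both receptors with IL8, stayed low in series 1. It had 31.1, 2.52 and 10.5 normalised counts untreated, 14, 10.9 and 22.0 with IgG and 33.6, 27.98 and 23.7 with IgA. The IgA libraries were above the IgG libraries but overlapped the untreated ones. The untreated libraries rested on 30, 3 and 13 counts, and a count of 3 has a 95% counting interval (exact Poisson) of 0.619 to 8.77, which covers counting error only. Against IgG it differed by 0.87 on the log2 scale (SE 0.69, 95% interval -0.62 to 2.36). Without the third IgA library it was 0.98. Against untreated cells the value was 0.98 too, 1.09 without the third IgA library, and 2.10 without the first and 0.46 without the second untreated library. CXCL5, a CXCR2 ligand of epithelial cells, had 0 counts in 7 of the 9 libraries of series 1 and 5 counts in an untreated and in an IgA library. It did not pass the filter on low counts in either series, and a change was not detectable at this depth. The 95% counting interval (exact Poisson) of a count of 0 reaches up to 3.69 counts in a library.

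With IgA against IgG, 4 of the 5 members that passed the filter on low counts were called higher (CXCL1, CXCL2, CXCL3 and IL8), where 12.6% of the 18012 genes tested were called higher and 11.6% lower. With IgA against untreated cells the same 4 members were called, where 12.9% of genes were called higher and 12.1% lower. Calls were made with edgeR's quasi-likelihood test, at a Benjamini-Hochberg adjusted p under 0.05. The members were chosen on these comparisons, so nothing is read from the counts. The median log2 fold change of the 5 members was 3.27 against IgG and 3.38 against untreated cells, while that of all genes tested was -0.01 in both.

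The comparison of IgG with untreated cells was tested, since it was not itself among those that chose the members. It is the difference of the comparisons of IgA with untreated cells and with IgG, which did. The test is therefore not free of the choice, least of all for CXCL1 and IL8, and is no independent result. No member passed the test between IgG and untreated cells. All 5 members tested overlapped between the groups, but the share of all genes that overlapped was not counted, so nothing is read from this. For CXCL1 the log2 fold change was 0.02 (95% interval -0.34 to 0.39), and it was 0.11 (-0.39 to 0.62) for CXCL2 and 0.00 (-0.44 to 0.43) for CXCL3. It was -0.02 (-0.64 to 0.59) for IL8 and 0.11 (-1.41 to 1.63) for CXCL6. The adjusted p was 1.00 for each in edgeR's quasi-likelihood test. As folds of IgG over untreated cells, the intervals run from 0.641 to 1.51 for IL8 and from 0.787 to 1.31 for CXCL1. Across all genes 0% were called in this comparison by edgeR, with 89 genes at an unadjusted p under 0.05. DESeq2 called 0 genes, with 76 at an unadjusted p under 0.05.

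**Figure D2:**
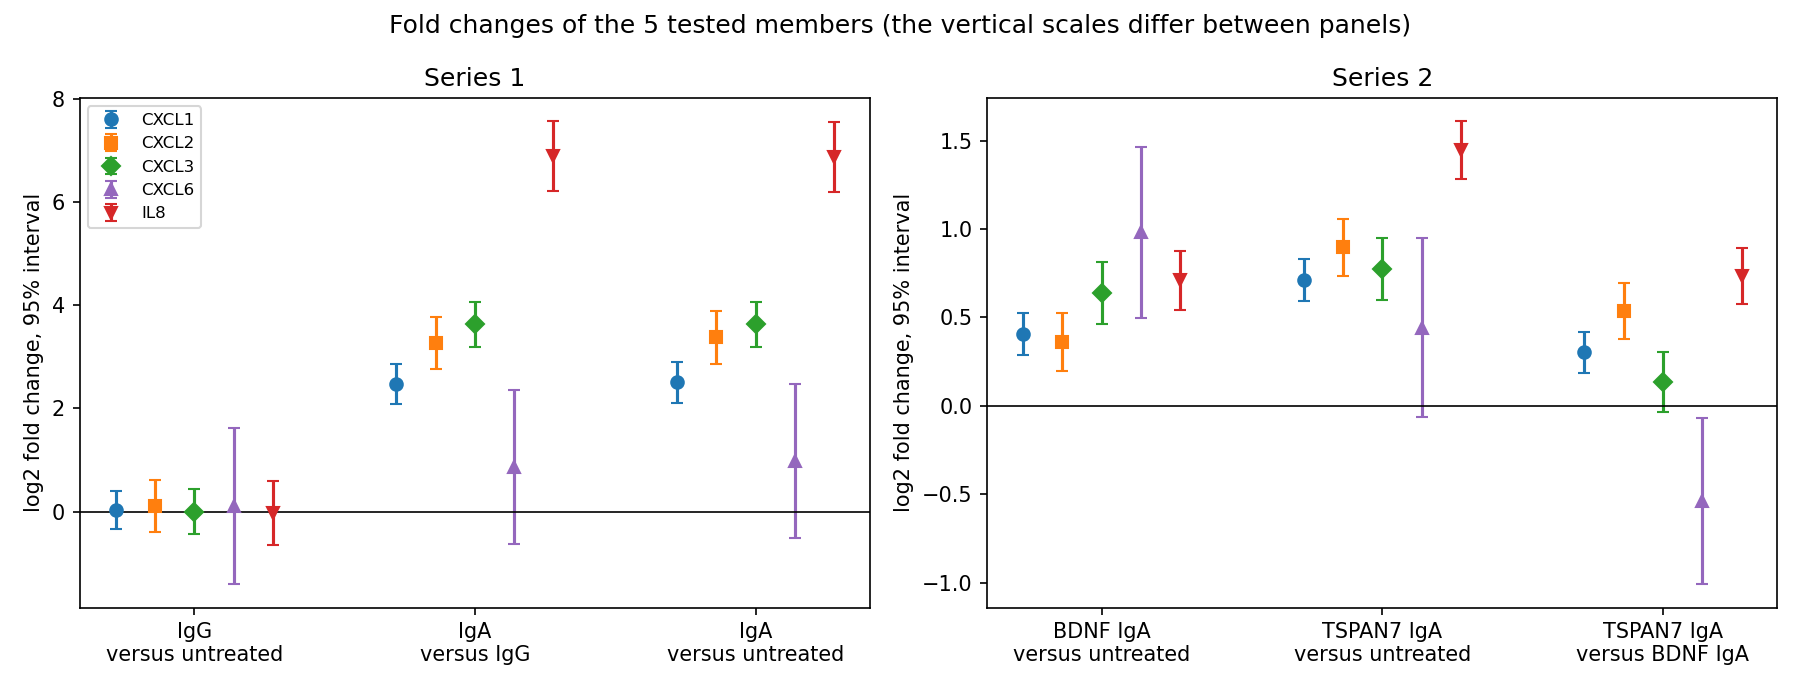
Log2 fold changes with 95% intervals from edgeR for the 5 members that passed the filter on low counts, in the 3 comparisons of series 1 (left) and of series 2 (right), on different vertical scales. The IgG comparison lies around 0, IL8 lies near 6.9 with IgA, and in the comparison of TSPAN7 IgA with BDNF IgA the intervals of IL8, CXCL2 and CXCL1 lie above 0 and that of CXCL6 below 0.

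In series 2, IL8 had 738, 706 and 732 normalised counts in untreated cells, 1176, 1300 and 1087 with BDNF IgA and 1751, 2221 and 1962 with TSPAN7 IgA. The groups did not overlap, and untreated, BDNF IgA and TSPAN7 IgA followed in this order. The means were 726 ± 17.2 (SD, n = 3), 1188 ± 107 and 1978 ± 236. The log2 fold change against untreated cells was 0.71 (SE 0.08, 95% interval 0.54 to 0.88) with BDNF IgA and 1.45 (SE 0.08, 1.28 to 1.61) with TSPAN7 IgA.

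CXCL1 and CXCL2 kept the same order of groups. CXCL1 had 10334, 10818 and 11773 normalised counts untreated, 14226, 15279 and 14194 with BDNF IgA and 16701, 19622 and 17567 with TSPAN7 IgA. Its log2 fold change was 0.41 (SE 0.06) with BDNF IgA and 0.71 (SE 0.06) with TSPAN7 IgA. CXCL2 had 635, 710 and 684 untreated, 863, 969 and 779 with BDNF IgA and 1199, 1352 and 1229 with TSPAN7 IgA. The 3 groups of each gene did not overlap, and the log2 fold changes of CXCL2 were 0.36 (SE 0.08) and 0.90 (SE 0.08). The share of all genes with groups separated in this order was not counted, so nothing is read from the shared order.

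CXCL3 also kept this order, with a narrow gap between the antibodies. It had 292, 295 and 296 normalised counts untreated, 478, 431 and 469 with BDNF IgA and 495, 524 and 492 with TSPAN7 IgA. The 3 groups did not overlap, and the log2 fold changes against untreated cells were 0.64 (SE 0.08) and 0.77 (SE 0.08). CXCL6 did not keep the order. It had 28.4, 30.3 and 43.3 untreated, 68.7, 65.9 and 68.4 with BDNF IgA and 54.9, 43.2 and 41.1 with TSPAN7 IgA. BDNF IgA was the highest group for CXCL6, and TSPAN7 IgA overlapped the untreated cells. The log2 fold changes were 0.98 (SE 0.23) and 0.44 (SE 0.24). CXCL5 had 0 to 7 counts in the 9 libraries of series 2 and was not tested.

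With BDNF IgA, 5 of 5 members tested were called higher than in untreated cells, where 4.49% of the 18732 genes tested were called higher and 3.18% lower. With TSPAN7 IgA 4 of 5 were called, all but CXCL6, where 4.46% of genes were called higher and 4.08% lower. Nothing is read from these counts, since both comparisons chose the members, and they share the untreated libraries. In the first, CXCL6 was not called without the first or the second untreated library, which left 4 members called. S100A8 and S100A9 carry the summed level of the neutrophil markers. In series 2 MPO and FCGR3B had 0 counts in every library, and S100A12 had 5 to 23. The sum was 8691 to 12035 normalised counts in the BDNF IgA libraries, 5830 to 6301 with TSPAN7 IgA and 5172 to 7403 untreated. The part of this difference in the values of the chemokines was not tested.

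The direct comparison of the antigen-specific antibodies was tested. IL8, CXCL2 and CXCL1 were higher with TSPAN7 IgA than with BDNF IgA in 3 of 3 libraries, CXCL3 did not pass the test, and CXCL6 had the opposite sign. IL8 differed by 0.74 on the log2 scale (SE 0.08, 95% interval 0.58 to 0.89, fold 1.67), with an adjusted p of 8.89e-06 in edgeR's quasi-likelihood test. CXCL2 differed by 0.53 (SE 0.08, 0.38 to 0.69, fold 1.45), with an adjusted p of 1.98e-04. CXCL1 differed by 0.30 (SE 0.06, 0.18 to 0.42, fold 1.23), with an adjusted p of 0.00207. Both fold changes of IL8 against untreated cells were known when the family was chosen, so its difference is no independent result. Of the 4 other members tested, 2 were called higher and 0 lower, where 3.42% of all genes were called higher and 4.5% lower. These members came in with the same family, and the comparison is the difference of those that chose it. Nothing is therefore read from this count.

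For CXCL3 the TSPAN7 IgA libraries were above the BDNF IgA libraries, but the difference was 0.13 (95% interval -0.04 to 0.30, adjusted p 0.355, edgeR). For CXCL6 all TSPAN7 IgA libraries were below all BDNF IgA libraries, with a difference of -0.54 (95% interval -1.01 to -0.07). Its adjusted p of 0.155 (edgeR) did not pass the threshold. Leaving out any 1 library kept IL8, CXCL2 and CXCL1 called, with log2 differences of 0.64 to 0.82, 0.46 to 0.62 and 0.23 to 0.35.

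The members also differed in their share of the family. Levels of different genes were compared as normalised counts per kb of the canonical transcript, which may not be the gene model the authors counted on. The summed level of the 6 genes was 4234 ± 163 (SD, n = 3) per kb in untreated cells of series 1, 4310 ± 90.8 with IgG and 34784 ± 6317 with IgA. CXCL1 made up 92.6% ± 0.29 of it untreated and 92.5% ± 0.40 with IgG, and 62.6%, 73.5% and 52.7% in IgA replicates 1, 2 and 3. IL8 made up 2.03% ± 0.65 untreated and 1.99% ± 0.56 with IgG, and 30.5%, 18.9% and 41.2% in the same IgA libraries. The IgA library with the highest share of IL8 was the third, that with the high mitochondrial share. CXCL2 and CXCL3 kept small shares, of 3.81% ± 0.73 and 3.02% ± 0.10 with IgA. In series 2 the sum was 10693 ± 648 per kb untreated, 14384 ± 642 with BDNF IgA and 18135 ± 1504 with TSPAN7 IgA. CXCL1 made up 84.3% to 88.0% of it in every library there. IL8 made up 4.14% ± 0.27 untreated, 5.02% ± 0.25 with BDNF IgA and 6.63% ± 0.27 with TSPAN7 IgA, and its share did not overlap between the groups.

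**Figure D3:**
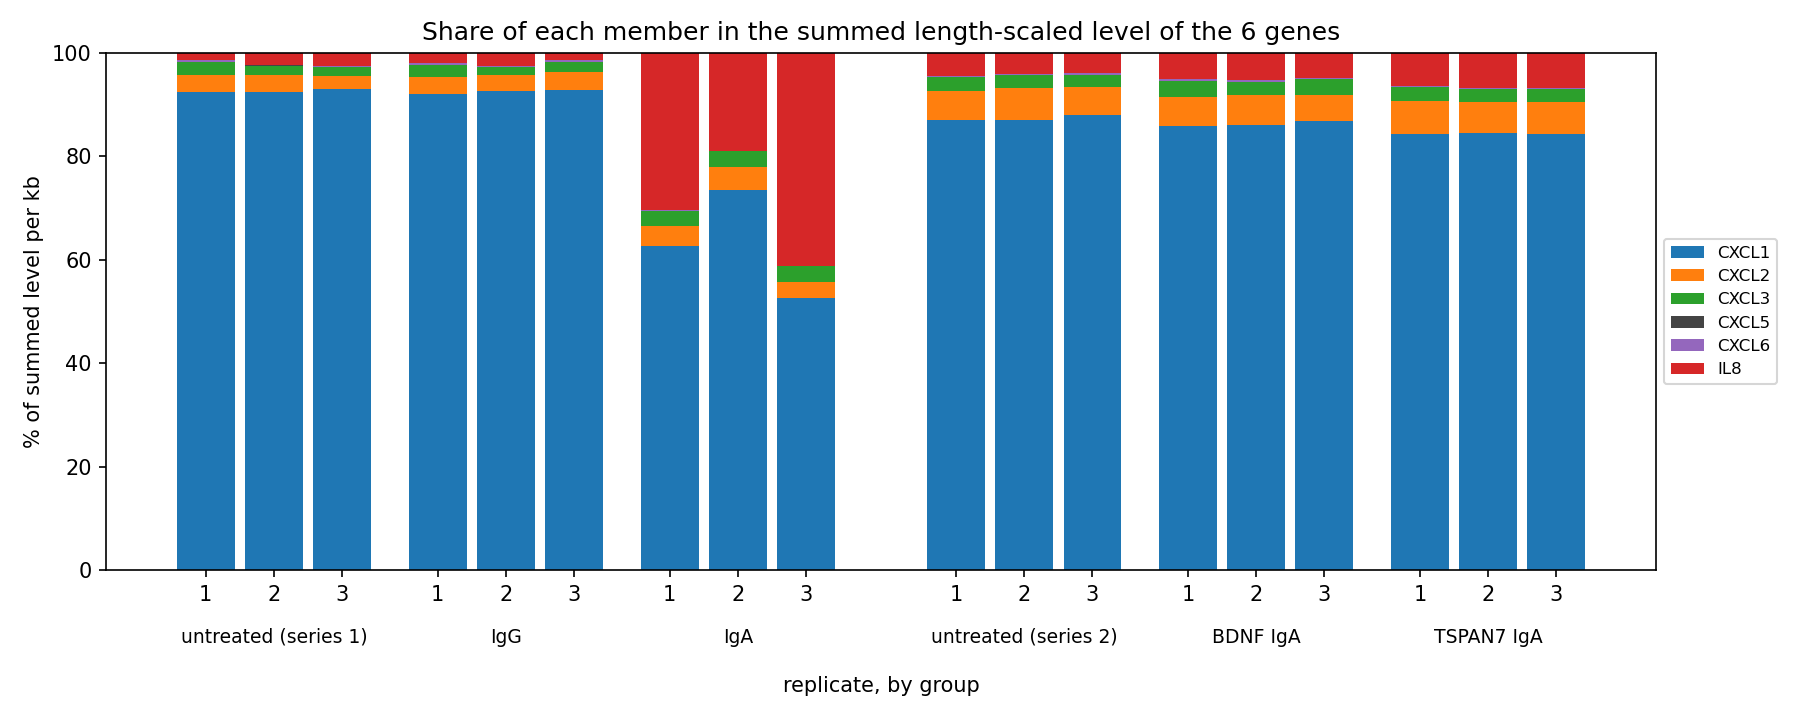
Share of each member in the summed length-scaled level of the 6 genes, in percent, 1 bar per library grouped by treatment. CXCL1 fills over 84% of every bar except the 3 IgA bars of series 1, where IL8 takes 18.9% to 41.2%, and CXCL5 and CXCL6 are too small to be seen clearly.

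In untreated cells of series 1 the order of levels per kb was CXCL1, CXCL2, IL8, CXCL3, CXCL6 and CXCL5. IL8 (86.6 ± 30.2 per kb) and CXCL3 (85.4 ± 11.6) did not differ beyond their spread there. With IgA, IL8 (10175 ± 2849 per kb) stood second after CXCL1 (22191 ± 6620). CXCL2 (1350 ± 448) and CXCL3 (1049 ± 171) then followed, within their spread. In untreated cells of series 2 CXCL2 (607 ± 34.2 per kb) stood above IL8 (442 ± 10.5). With TSPAN7 IgA, IL8 (1204 ± 143) and CXCL2 (1130 ± 72.8) did not differ beyond their spread.

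Genes were also ranked by likeness to each member, as the root mean square difference of log2 (normalised count + 1), taken relative to untreated cells, over the 9 libraries of a series. The likeness is a description, since libraries share their scaling and groups. For IL8 the closest gene in both series was CCL20, a CC chemokine for cells with the receptor CCR6, at 0.51 in series 1 and 0.20 in series 2. CCL20 had 31.5 ± 4.95 (SD, n = 3) normalised counts untreated, 31.0 ± 14.2 with IgG and 2683 ± 462 with IgA. In series 2 it had 264 ± 28.3 untreated, 445 ± 99.1 with BDNF IgA and 660 ± 87.3 with TSPAN7 IgA. The next genes in series 1 were CD69, a membrane protein known from activated lymphocytes (0.78), and PTX3, a secreted pentraxin (0.88). CD69 had 1.39 ± 1.76 normalised counts untreated, 2.89 ± 1.55 with IgG and 184 ± 32.1 with IgA. Its control values are near 0, so its distance depends on the 1 added before the log. In series 2 the next genes were CRYAB (0.22), a small heat shock protein, and TNS4 (0.23).

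For CXCL1 the closest genes in series 1 were NFKBIE, an inhibitor of NF-κB (0.28), CLDN1, a tight junction protein (0.30), and ICAM1, an adhesion molecule that leukocytes bind (0.30). For CXCL2 they were CXCL3 (0.28), DUSP5, a phosphatase of ERK (0.30), and the neurotrophin receptor NGFR (0.36), and for CXCL3 they were DUSP5 (0.21), CXCL2 (0.28) and EREG (0.40). In series 2 CXCL1 was closest to PTX3 (0.12), CXCL2 (0.13) and the keratin KRT81 (0.13), and CXCL2 to KRT81 (0.09), KRT80 (0.12) and CXCL1 (0.13). CXCL3 was closest there to EIF2AK2 (0.08), SP110 (0.08) and SAMD9 (0.09), which are known as interferon-stimulated genes. EIF2AK2 had 13272 ± 268 (SD, n = 3) normalised counts untreated, 20864 ± 813 with BDNF IgA and 21220 ± 737 with TSPAN7 IgA. CXCL6 was closest to FAM131C (0.18), GIPC3 (0.20) and IL1RN, the IL-1 receptor antagonist (0.22), and in series 1 its level was under the 50 normalised counts needed for this ranking.

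The neighbours on chromosome 4 were read in the same comparisons. EREG, an EGF receptor ligand beyond the CXCL2 end of the cluster, had 49.7 ± 16.9 (SD, n = 3) normalised counts with IgG and 705 ± 199 with IgA. Its log2 fold change was 3.82 (SE 0.28, adjusted p 2.46e-06, edgeR), or 3.59 without the third IgA library. It also rose with TSPAN7 IgA against BDNF IgA, by 0.72 (adjusted p 0.0112), and had a log2 fold change of 0.05 with BDNF IgA against untreated cells (adjusted p 0.908). MTHFD2L, a mitochondrial folate enzyme that lies next to CXCL2, rose by 0.68 with IgA against IgG (adjusted p 0.0107, or 0.51 with 0.0213 without the third IgA library). Against untreated cells MTHFD2L rose by 0.55 with IgA (adjusted p 0.0279, edgeR). Without the third IgA library it was at 0.38 there and no longer called (adjusted p 0.0704, edgeR). With TSPAN7 IgA against untreated cells MTHFD2L rose by 0.28 (adjusted p 0.0404, edgeR).

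RASSF6, upstream of IL8, was not called in any comparison, with log2 fold changes from -0.58 to 0.12. Without the third IgA library its value with IgA against untreated cells was -0.81, with an adjusted p of 0.0478 (edgeR). PF4V1, a platelet factor variant between CXCL6 and CXCL1, had 115 ± 2.59 (SD, n = 3) normalised counts in untreated cells of series 2, 63.6 ± 17.6 with BDNF IgA and 130 ± 34.8 with TSPAN7 IgA. It fell with BDNF IgA by 0.86 on the log2 scale (adjusted p 0.0146, edgeR) and was higher with TSPAN7 IgA than with BDNF IgA by 1.03 (adjusted p 0.00425). In series 1 it rose with IgA against untreated cells by 1.89 (adjusted p 0.0131, or 1.75 without the third IgA library) but was not called against IgG (0.87, adjusted p 0.187). It is a close copy of PF4, and reads may be split between them. PPBP and PF4, platelet chemokines within the cluster, had at most 5 and 16 counts in any library, AFM, a flanking gene, had 0 counts in every library, and the flanking genes AFP and EPGN had at most 18 and 15. The other annotated genes of the interval with a row in the tables (PPBPP2, HNRNPA1P55, CXCL1P1 and RN7SL218P) had at most 6 counts.

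**Figure D4:**
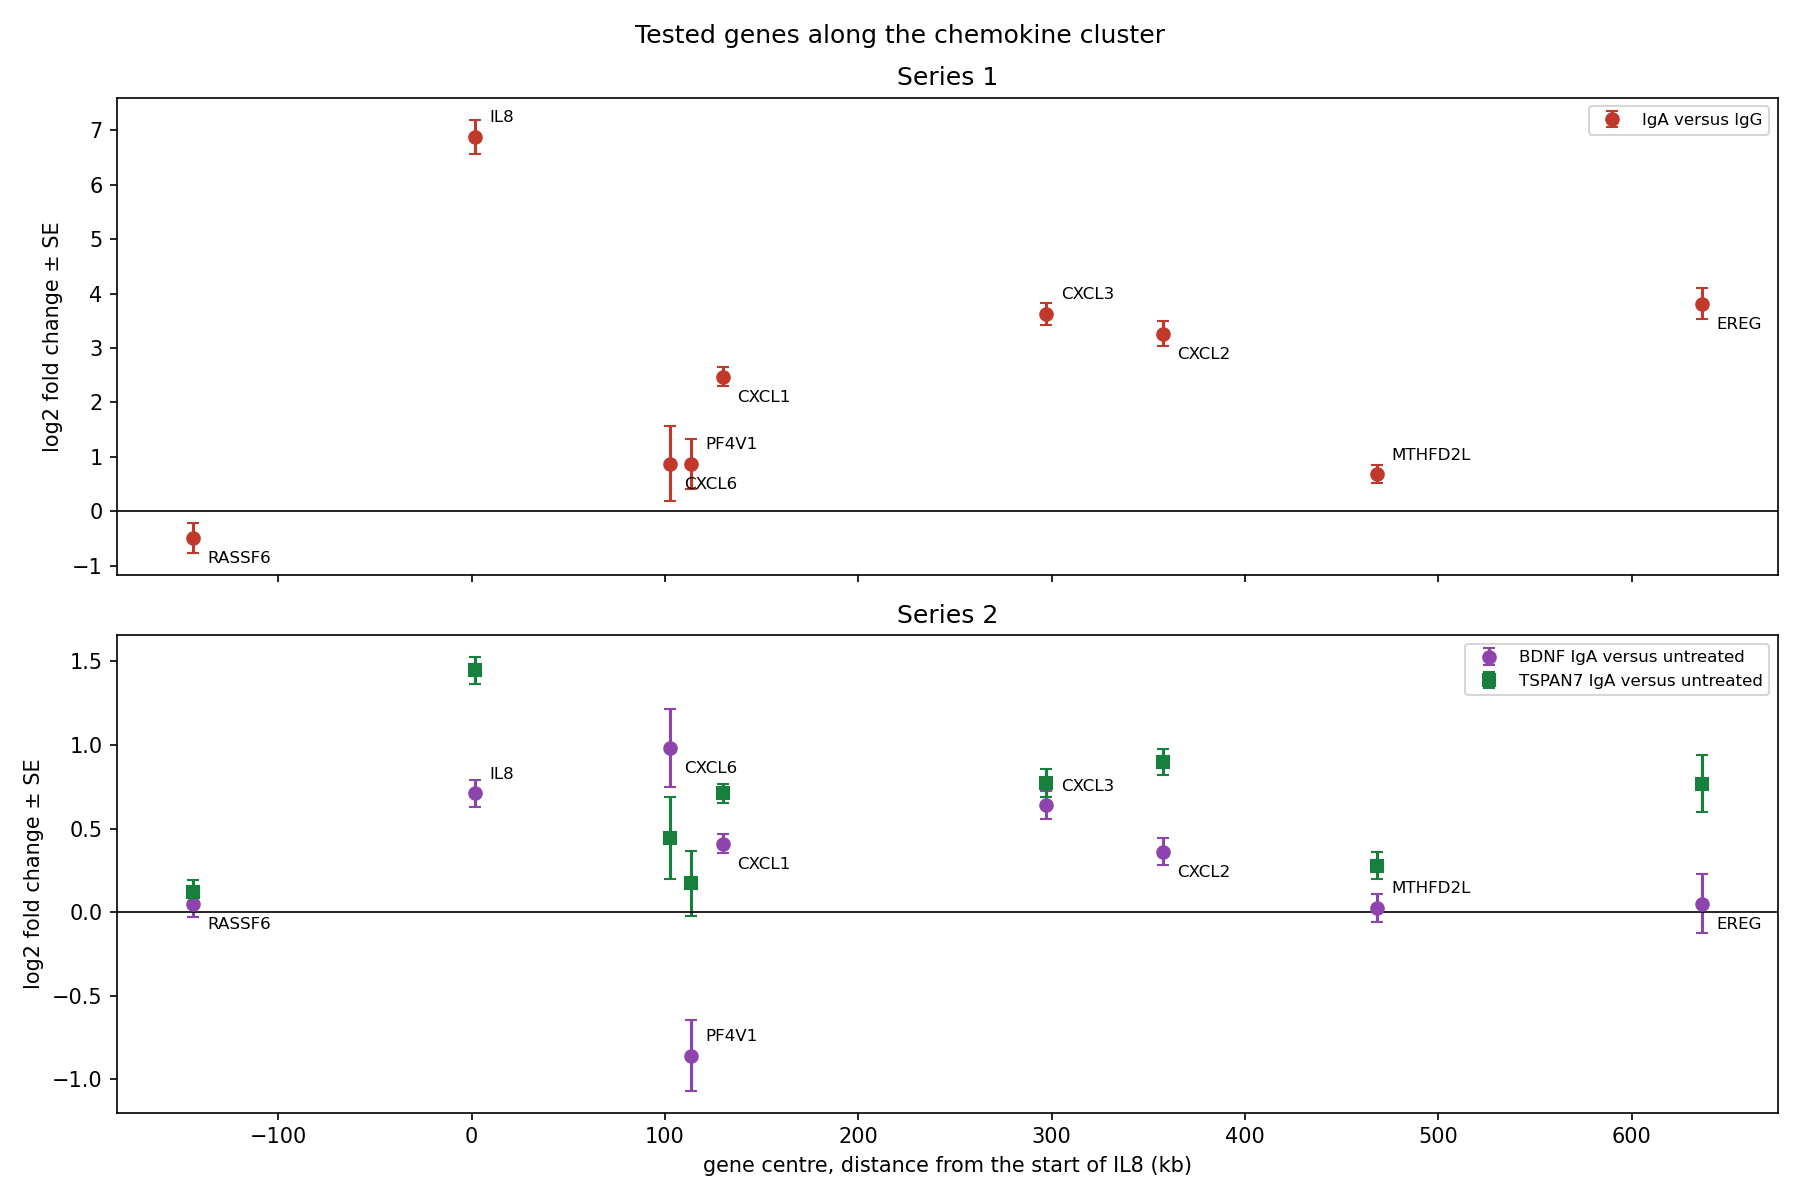
Log2 fold change with its SE for the tested members and neighbours, against the distance of the gene centre from the start of IL8 in kb, for IgA against IgG (top) and for BDNF IgA and TSPAN7 IgA against untreated cells (bottom). IL8 at the left end and EREG beyond the right end of the cluster are high with IgA, while RASSF6 lies below 0, and with BDNF IgA PF4V1 lies at -0.86 between higher members.

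The other genes of the pathway came from 6 lists, chosen with earlier results of these data known, and their calls were made over all genes tested. Their counts stand beside the shares of all genes called, which were 12.6% higher and 11.6% lower with IgA against IgG, 4.49% and 3.18% with BDNF IgA, 4.46% and 4.08% with TSPAN7 IgA, and 3.42% and 4.5% between these antibodies. Between IgG and untreated cells 0 genes of any list were called by edgeR and 0 by DESeq2, with 1 gene in all, among the cytokines acting on granulocytes, at an unadjusted p under 0.05. With IgA against untreated cells the calls higher were 6 of 9 inducing cytokines and receptors (2 lower), 11 of 16 transcription factors and inhibitors, 4 of 8 decay and stability factors, 3 of 3 cytokines acting on granulocytes and 1 of 5 other CXC chemokines, PF4V1. Without the third IgA library the calls against IgG were the same genes in the lists of cytokines, receptors and chemokines. NFKBIB and ELAVL1 were then also called higher and ZFP36L2 was no longer called, which are named after their values were seen. The log2 fold changes against IgG were then 5.09 for TNF, 4.79 for IL1A, -0.40 for IL1R1, -0.58 for IL17RC, 3.96 for TNFAIP3, 2.53 for NFKBIA and 2.23 for NFKBIE. They were 1.56 for ZFP36L1, 1.82 for ZC3H12A, 0.61 for ZFP36, 4.35 for IL6, 2.09 for CSF1 and 2.28 for LIF, and each of these 13 genes was still called. Against untreated cells IL17RC (-0.41, adjusted p 0.0678, edgeR) and REL (0.31, adjusted p 0.0558) were then no longer called, and NFKBIB, ELAVL1 and, lower, FOS were. The receptors of the family were near 0, with at most 3 counts of CXCR1 and 7 of CXCR2 in any library. Of 6 receptors 2 were tested (CXCR4 and ACKR3). In the 6 comparisons the only call by edgeR was CXCR4, the receptor of CXCL12. It was lower with TSPAN7 IgA than untreated, at 17.95 against 48.5 normalised counts (log2 fold change -1.43, adjusted p 0.00917, edgeR), and is named after its values were seen.

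Of 11 cytokines and cytokine receptors that induce these chemokines, 9 were tested. With IgA against IgG 6 were called higher and 2 lower, with a median log2 fold change of 0.74. TNF rose from 29.6 ± 13.3 (SD, n = 3) to 1024 ± 52.8 normalised counts, by 5.09 (SE 0.29, adjusted p 2.85e-07, edgeR). IL1A rose from 20.4 ± 4.70 to 711 ± 256, by 5.12 (SE 0.36). IL1B reached 67.0 ± 29.8 with IgA and had at most 1 count in any IgG library, so no fold is given. The receptors IL1R1 and IL17RC fell by 0.59 and 0.69. In series 2, 3 of 9 were called higher with either antibody and 0 lower. IL1A rose by 1.39 with BDNF IgA and by 1.48 with TSPAN7 IgA (adjusted p 3.91e-05 and 1.44e-05, edgeR), and TNF rose by 0.87 and 1.09 (0.0152 and 0.00248). Between the 2 antibodies 0 of the 9 were called by edgeR and 0 by DESeq2, with 2 at an unadjusted p under 0.05.

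Of 16 transcription factors and NF-κB inhibitors, all 16 were tested. With IgA against IgG 11 were called higher and 0 lower, with a median of 1.33. TNFAIP3, an enzyme that ends NF-κB signalling, rose from 312 ± 33.4 (SD, n = 3) to 5640 ± 1411 normalised counts, by 4.17 (SE 0.18, adjusted p 2.71e-08, edgeR). The inhibitors NFKBIA and NFKBIE rose by 2.57 and 2.25. With BDNF IgA 7 were called higher and 1 lower, and with TSPAN7 IgA 6 and 0. TNFAIP3 rose by 0.49 and 0.77, and it was higher with TSPAN7 IgA than with BDNF IgA by 0.28 (adjusted p 0.0166, edgeR). In that direct comparison CEBPD, a C/EBP factor, was higher by 0.33 and FOS, a part of AP-1, by 0.17, while CEBPB was lower by 0.22 (adjusted p 0.00208, 0.0428 and 0.00907). Against untreated cells CEBPD was lower with BDNF IgA by 0.22 (adjusted p 0.0303, edgeR). With TSPAN7 IgA it was not called (0.11, adjusted p 0.310, edgeR). FOS was called higher with both antibodies (0.25 and 0.42), and CEBPB was called with neither (0.14 and -0.08).

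Of 8 factors of mRNA decay and stability, 5 were called higher with IgA against IgG and 0 lower. ZFP36L1, ZC3H12A and ZFP36, which promote decay of chemokine and cytokine mRNAs, rose by 1.89, 1.66 and 0.64. With BDNF IgA 4 rose and 2 fell, with ZC3H12A at 0.43 and HNRNPD at -0.24, and with TSPAN7 IgA 4 rose and 0 fell. Between the 2 antibodies 0 of the 8 were called by edgeR and 0 by DESeq2, with 2 at an unadjusted p under 0.05.

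Of 5 other cytokines acting on granulocytes and their precursors 3 were tested (CSF1, IL6 and LIF), and CSF2 and CSF3 did not pass the filter on low counts. With IgA against IgG all 3 were called higher. IL6 rose from 36.8 ± 8.55 (SD, n = 3) to 854 ± 189 normalised counts, by 4.53 (SE 0.24, adjusted p 1.49e-07, edgeR), CSF1 by 2.62 and LIF by 2.34. With TSPAN7 IgA all 3 were called higher too, and with BDNF IgA CSF1 and LIF were. IL6 was higher with TSPAN7 IgA than with BDNF IgA by 0.94 (adjusted p 0.00746).

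Among 11 other CXC chemokines, which act on other receptors or on cells other than neutrophils for the most part, few were expressed. Of 5 tested in series 1, 0 were called with IgA against IgG by edgeR and 0 by DESeq2, with 1 at an unadjusted p under 0.05. In series 2, CXCL10, an interferon-induced chemokine for T cells, rose from 28.6 ± 7.23 (SD, n = 3) to 82.1 ± 5.51 normalised counts with BDNF IgA and to 95.5 ± 9.75 with TSPAN7 IgA, by 1.52 and 1.74 (adjusted p 1.32e-04 and 1.77e-05, edgeR). In series 1 CXCL10 had 4.61 ± 1.63 (SD, n = 3) with IgG and 14.6 ± 8.33 with IgA and was not called (adjusted p 0.138).

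**Figure D5:**
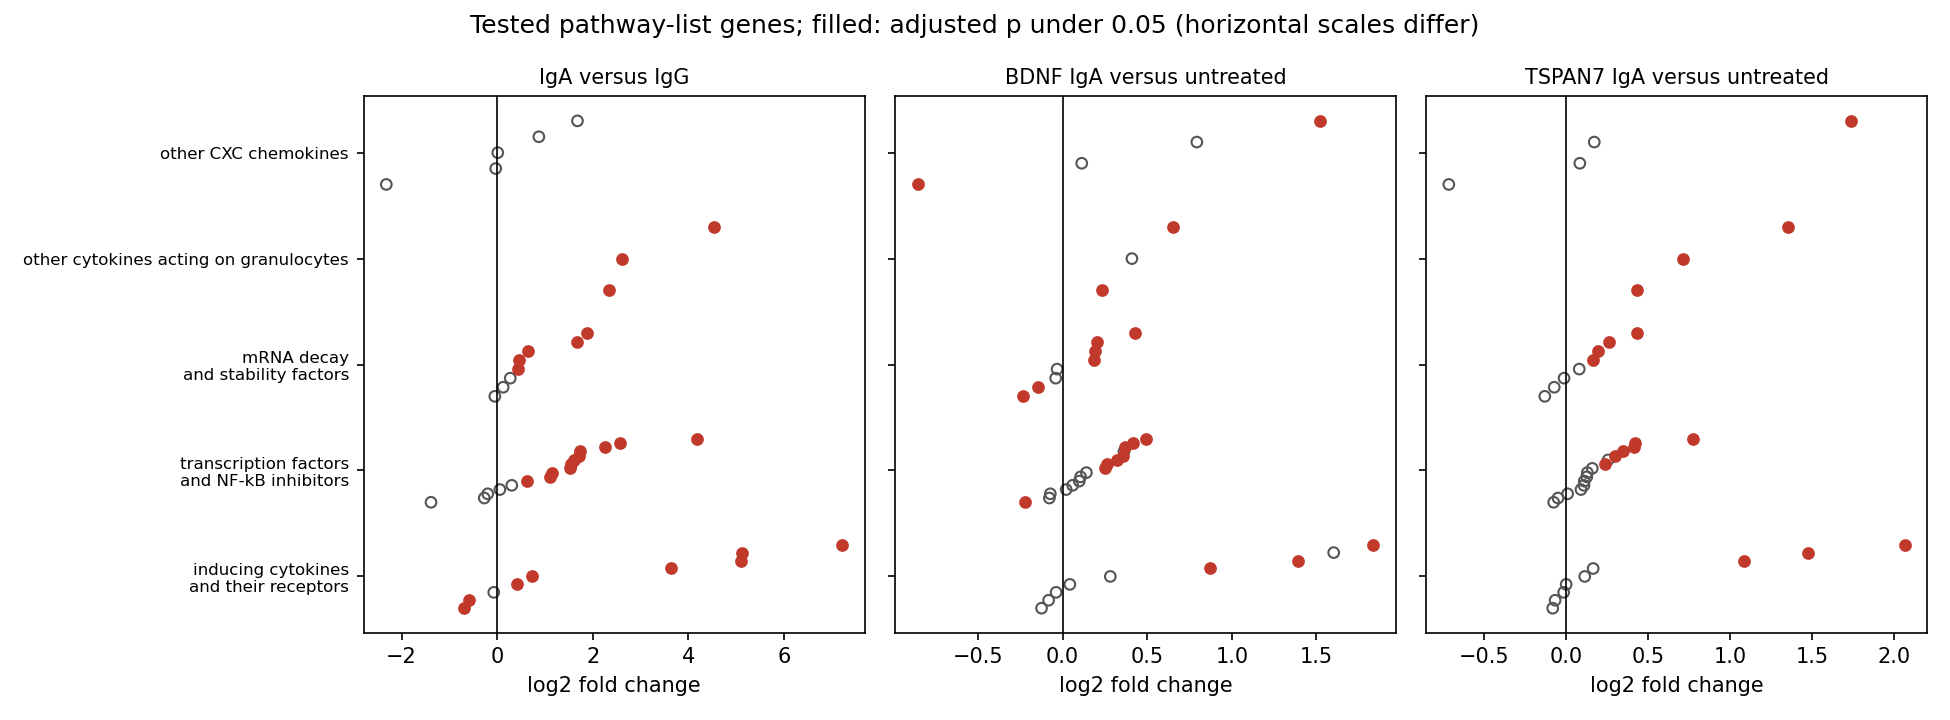
Log2 fold change of every tested gene of 5 pathway lists (1 point per gene, ordered by value within a list) for IgA against IgG, BDNF IgA and TSPAN7 IgA against untreated cells, on different horizontal scales; filled points passed an adjusted p of 0.05. Most filled points lie above 0, and the rightmost point of the cytokines with IgA is IL1B, whose fitted value rests on at most 1 count in an IgG library.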

How the data were processed

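Per their methods, the authors used cutadapt 1.8.1 for trimming, STAR for alignment to GRCh37 and featureCounts to assign uniquely mapped reads to genes. The submitters' processing notes list HTSeq 0.6.1 instead, and the symbols of the tables are older than the annotation the methods name. The deposited values are raw counts, without normalization, and the authors tested them with DESeq2. The second table held 57820 rows, of which 2055 exact duplicates (1.99% to 2.46% of the counts of a library) were removed.

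Each series of 9 libraries was fitted once with edgeR 4.0.16 in R 4.3.3 (TMM, filterByExpr, two-sided quasi-likelihood F test, Benjamini-Hochberg over all genes tested). The SE was taken from the log2 fold change and its F value. Groups came from sample titles. Alternatives were DESeq2 1.42.0, other scalings, filters and thresholds, a replicate block, only the libraries compared, no mitochondrial genes, and leaving out each replicate. The fit was tested on simulated data. Counting intervals cover counting error only.

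The members and lists were chosen with earlier results of these data known. Named were all members and, per list and comparison, at most the 3 highest and 2 lowest called genes that reached a mean of 50 normalised counts in some group, the 3 genes most like each member, and the genes of the cluster with 3 protein-coding neighbours on each side. Gene positions and lengths came from GENCODE on GRCh37 and promoters from RefSeq on GRCh38.p14.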

Additional observations from a re-analysis of the deposited data

Results flagged for a closer look

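For 3 members the fold changes with the 2 antigen-specific antibodies differed from each other in the test of the difference itself. Of all genes tested, 3.42% were called higher and 4.5% lower in this comparison. The log2 fold change with TSPAN7 IgA minus that with BDNF IgA was 0.74 for IL8, 0.53 for CXCL2 and 0.30 for CXCL1, with adjusted p of 8.89e-06, 1.98e-04 and 0.00207 (edgeR), and all 3 TSPAN7 IgA libraries were above all 3 BDNF IgA libraries for each gene. Both fold changes of IL8 against untreated cells were known when the family was chosen, so its difference is no independent result. CXCL2 and CXCL1 came in with the same family and are compared on the same libraries, so nothing is read from the count of members. The share of all genes with no overlap between these groups was not counted. No control IgA of another specificity was in that series, so the antigen and the antibody clone cannot be told apart.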

How the results depend on the processing

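The number of members called higher changed with BDNF IgA, from 5 to 4, at an adjusted p under 0.01 and without the first or second untreated library. Of the recomputed log2 fold changes of members, 445 kept their call or moved by less than the SD between replicates on the log2 scale, and 12 near 0 changed sign, all between IgG and untreated cells. This SD is wide for CXCL6 in series 1, whose value with IgA against untreated cells went from 0.98 to 0.46 and 2.10 without single untreated libraries. Scaling by library size moved the median over all genes to -0.25 (log2) with IgA against IgG and to -0.22 against untreated cells, and IL8 was then at 6.63 and 6.64. It called 873 genes higher and 3631 lower against IgG, in place of 2265 and 2095, and 1001 and 3296 against untreated cells, in place of 2316 and 2187. With BDNF IgA it called 1000 and 485, in place of 841 and 596. Same-numbered replicates of different groups had correlations of their deviations from -0.07 to 0.25 in series 1 and from -0.02 to 0.09 in series 2. The correlation was over 0.1 in 1 of 9 pairs in series 1 and 0 of 9 in series 2. For pairs with different numbers the ranges were -0.21 to 0.14 and -0.08 to 0.05. The labels do not say whether a number marks a shared experiment, and these correlations cannot decide it. With the replicate block the counts of members called were 4 (IgA against IgG and against untreated cells), 5, 4 and 3 (TSPAN7 IgA against BDNF IgA).

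The calls of the pathway lists summed over lists moved in these cases, and the cause was not tested. With IgA against IgG, the calls lower were 2, and 4 under library size scaling. With IgA against untreated cells they were 2, and 1 with only the 6 libraries compared. With TSPAN7 IgA they were 1, and 2 by DESeq2 and with only the 6 libraries compared. With TSPAN7 IgA against BDNF IgA they were 1, and 2 by DESeq2 and under library size scaling. Leaving out 1 replicate gave 1 to 3 lower with IgA against IgG, 0 to 3 with IgA against untreated cells, 1 to 4 with BDNF IgA (4 with all libraries), 0 to 1 with TSPAN7 IgA, and 0 to 4 lower and 2 to 9 higher with TSPAN7 IgA against BDNF IgA, where the 9 came without the second BDNF IgA library. Depth limits CXCL5 and, in series 1, CXCL6.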
